A study of Homo sapiens with 4 samples.

Results

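The genes described here carry out cysteine and glutathione metabolism: CTH, CBS, BHMT, SLC7A11, GCLC, GCLM, GSS, CHAC1, CDO1 and CSAD. They are 10 of 19775 genes measured on Affymetrix U133 Plus 2.0 arrays, and they were read by 23 of the 41091 probe sets that carry a single gene symbol in the platform annotation. The cells were HuH7, a human hepatocellular carcinoma line. Wild-type HuH7 cells gave 2 arrays. The other 2 arrays came from HuH7 cells in which KDM6B was knocked out by CRISPR/Cas9. KDM6B encodes an enzyme that removes methyl groups from lysine 27 of histone H3. The series concerns KDM6B, the lipolysis inhibitor gene G0S2 and lipid toxicity. Per the labels, a vector with 1 guide and a Cas9 vector were introduced, cells were selected in G418, and limiting dilution gave knockout subclones. The labels do not say which subclones were hybridised, whether wild-type cells were transfected or selected, or whether samples of a group were separate cultures. No other guide or rescue is described, so effects of the knockout and differences between subclones and wild-type cells cannot be told apart. P-values measure only the spread between arrays, which may be technical.

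Cysteine links methionine breakdown to glutathione. Homocysteine, made from methionine, is either methylated back to methionine or passed through transsulfuration, in which cystathionine is formed and then split to give cysteine. Cells also import cystine, the oxidised dimer of cysteine. Cysteine then enters glutathione, the main small thiol antioxidant of the liver, or is oxidised towards taurine and sulfate. The transcription factor ATF4 is known to induce transsulfuration, cystine import and CHAC1 under amino acid or endoplasmic reticulum stress, and NRF2 is known to induce SLC7A11, GCLC and GCLM.

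The members were chosen by pathway role with their knockout and wild-type log2 values in view, so those values are a description with no test. All values are log2 expression from RMA, which corrects background, equalises arrays and summarises the probes of a set. Differences subtract wild type from knockout, and their standard error (SE) comes from a limma fit across the 41091 probe sets for members and across the 19775 genes for all others. With each gene read by its brightest probe set, 9 members were lower and 1 was higher in knockout, and the median difference was -0.76, against 0.01 over all genes. Called at a limma adjusted p under 0.05 over all genes were 7 members, all lower, where 7.07% of all genes were called and 3.94% were called lower. The choice of members used this contrast, so nothing is read from that count. The 3 others were BHMT, GSS and CSAD. No member was called higher by limma (1 had an unadjusted p under 0.05), where 3.14% of all genes were. Leaving out an array reduced the 7 calls to 3 with either wild-type array gone and to 2 with either knockout array gone. CDO1 was called in each of these 4 fits.

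Of the 23 probe sets, 20 read lower and 3 higher. In 18 both knockout arrays lay below both wild-type arrays, where 22.2% of all probe sets did so. In 1, that of BHMT, both lay above, where 20.8% did so. The groups overlapped in the other 4, which were all 3 of CSAD and 1 of GCLM. By probe set, 9 of 23 were called, all lower, where 3.85% of all probe sets were called, 2.18% lower and 1.67% higher. They comprised 2 of CTH, 2 of SLC7A11 and 1 each of CBS (212816_s_at), GCLC, GCLM, CHAC1 and CDO1. RNA was taken from whole cultures, so fewer expressing cells and less RNA per cell cannot be told apart.

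**Figure D1:**
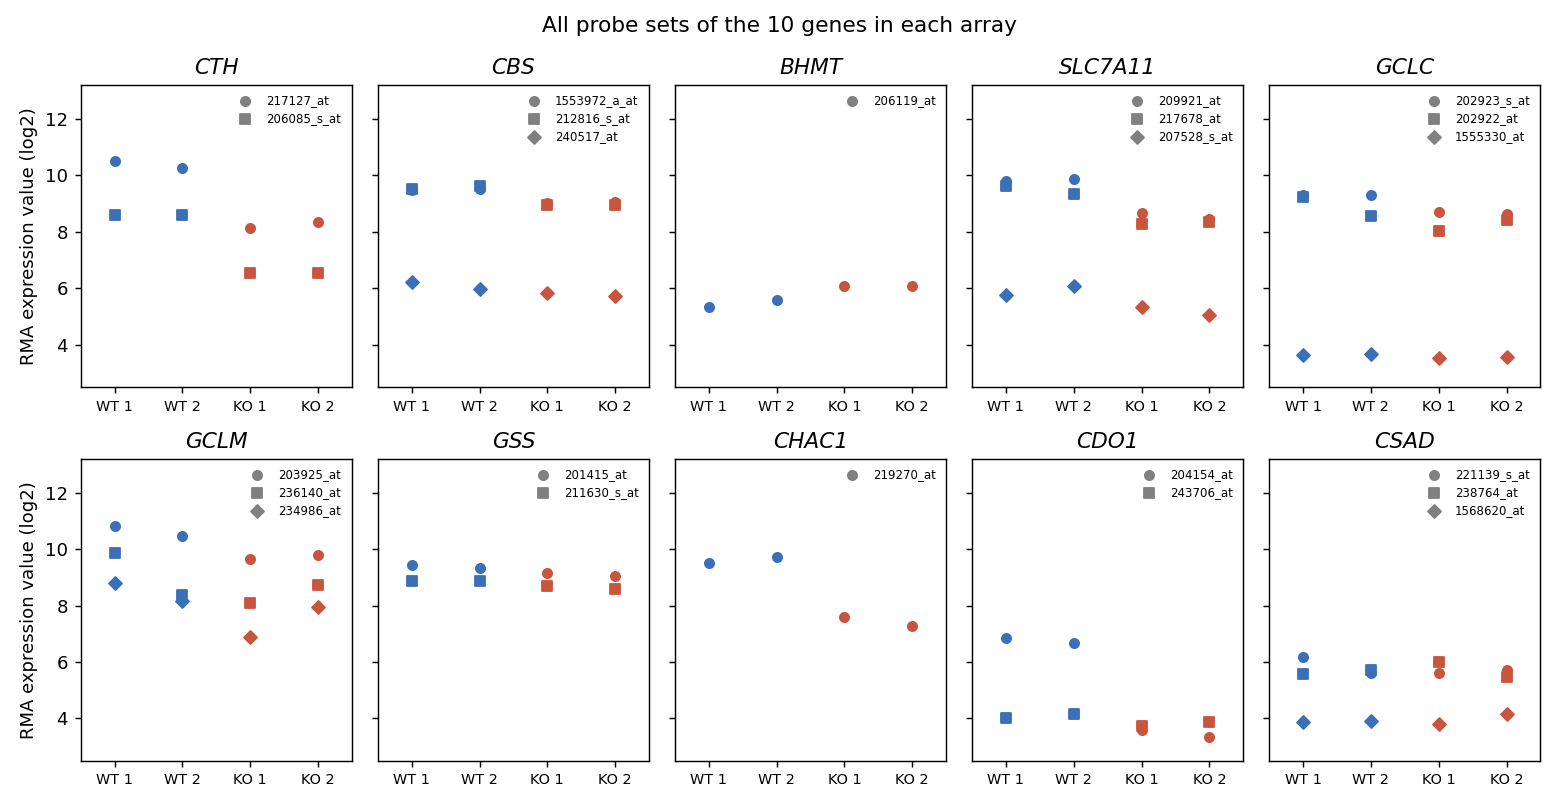
RMA log2 expression values of all 23 probe sets of the 10 genes in the 2 wild-type (WT, blue) and 2 knockout (KO, red) arrays, 1 panel per gene and 1 symbol per probe set. Both knockout arrays lie below both wild-type arrays in 18 probe sets, BHMT lies above, and the CSAD values overlap.

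Promoter sequences came from a table of RefSeq promoters (GRCh38.p14), in which 8 of the 10 members were matched, with 10 start sites (3 of CBS). The promoters of SLC7A11 and GSS were not analysed here. In the 250 bases before each start, both strands were searched for TGATGNAA, letters of the C/EBP-ATF response element that ATF4 binds, and for TGACNNNGC, letters of the antioxidant response element that NRF2 binds. The first was present before 1 member, CHAC1, and in 3.14% of all 35116 promoters. The second was present before 2 members, GCLM and 1 of the 3 CBS starts, and in 10.9% of all promoters. The promoters of CHAC1 and GCLM are shown because they hold a match, in capitals, and those of CTH and CDO1 because these genes had large differences and no match. They lie at chr15:40953221-40953470 (plus strand, CHAC1), chr1:93909431-93909680 (minus strand, GCLM), chr1:70411018-70411267 (plus strand, CTH) and chr5:115816660-115816909 (minus strand, CDO1), and each reads 5′ to 3′ up to the base before the start.
CHAC1: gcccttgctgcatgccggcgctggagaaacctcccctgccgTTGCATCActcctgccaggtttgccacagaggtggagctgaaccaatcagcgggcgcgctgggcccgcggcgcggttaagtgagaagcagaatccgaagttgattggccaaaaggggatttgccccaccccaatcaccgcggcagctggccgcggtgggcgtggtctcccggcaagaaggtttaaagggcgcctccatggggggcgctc
GCLM: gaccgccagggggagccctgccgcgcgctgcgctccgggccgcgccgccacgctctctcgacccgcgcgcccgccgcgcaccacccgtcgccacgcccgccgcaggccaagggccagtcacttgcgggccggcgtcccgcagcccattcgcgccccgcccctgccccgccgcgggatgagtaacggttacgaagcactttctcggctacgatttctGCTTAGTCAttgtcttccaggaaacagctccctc
CTH: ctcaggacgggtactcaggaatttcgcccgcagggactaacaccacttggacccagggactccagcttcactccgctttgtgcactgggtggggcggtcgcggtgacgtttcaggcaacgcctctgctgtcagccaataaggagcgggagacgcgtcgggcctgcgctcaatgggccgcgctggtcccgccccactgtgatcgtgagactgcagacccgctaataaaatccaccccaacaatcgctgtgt
CDO1: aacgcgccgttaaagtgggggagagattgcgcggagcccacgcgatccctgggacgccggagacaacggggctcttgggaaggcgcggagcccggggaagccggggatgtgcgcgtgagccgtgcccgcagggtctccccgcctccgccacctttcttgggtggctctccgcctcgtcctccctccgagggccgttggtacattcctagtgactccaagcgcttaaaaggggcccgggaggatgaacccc
In CHAC1 the match lies 209 to 202 bases before the start, on the opposite strand, where it reads TGATGCAA. In GCLM it lies 34 to 26 bases before the start, also on the opposite strand, where it reads TGACTAAGC. No member held both motifs. A match describes letters only, and no binding was measured.

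Transsulfuration genes read lower in knockout at both steps. CTH encodes cystathionine gamma-lyase, which releases cysteine from cystathionine. Its brightest probe set, 217127_at, read 10.51 and 10.25 in wild type against 8.15 and 8.34 in knockout, a difference of -2.14 (SE 0.13), or 4.4-fold lower. The second CTH probe set, 206085_s_at, read 8.58 and 8.61 in wild type against 6.53 and 6.54 in knockout. Its difference was -2.06 (SE 0.10), so both probe sets gave nearly the same size, and the groups did not overlap. From the largest fall, CTH ranked 25 among the 19775 genes.

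CBS encodes cystathionine beta-synthase, the first enzyme of transsulfuration. Its probe set 1553972_a_at read 9.47 and 9.53 in wild type against 9.02 and 9.04 in knockout, a difference of -0.47 (SE 0.09). The probe set 212816_s_at read 9.53 and 9.63 against 8.94 and 8.94, a difference of -0.64 (SE 0.09). The dimmer 240517_at read 6.21 and 5.98 against 5.84 and 5.74, a difference of -0.30 (SE 0.15). Replicates of the first 2 CBS probe sets lay within 0.10 of each other, and all 3 probe sets read lower in both knockout arrays. CBSL is listed as a synonym of CBS in RefSeq, and signal under the 2 names was not separated. Without probe sets whose suffix marks possible matches to several transcripts (s, x or a), CBS was left with -0.30.

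BHMT, which remethylates homocysteine with betaine as the methyl donor, was the 1 member that read higher. Its only probe set, 206119_at, gave 5.33 and 5.58 in wild type against 6.09 and 6.08 in knockout, a difference of 0.64 (SE 0.15), or 1.55-fold higher. BHMT2, its neighbour and relative, remethylates homocysteine with S-methylmethionine, and it went the other way. BHMT2 read 9.88 and 9.79 in wild type against 8.94 and 8.87 in knockout, and fell by 0.93 (SE 0.09, limma adjusted p = 0.0072). All 3 BHMT2 probe sets were lower, by differences of -1.23 to -0.24. The difference between the 2 genes was not tested.

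For cystine import, SLC7A11, which encodes the light chain of the cystine and glutamate exchanger xCT, read lower on every probe set. The brightest, 209921_at, read 9.79 and 9.87 in wild type against 8.66 and 8.45 in knockout, a difference of -1.28 (SE 0.11), or 2.42-fold lower. A second, 217678_at, read 9.62 and 9.35 against 8.26 and 8.36, a difference of -1.17 (SE 0.12). The dimmer 207528_s_at read 5.77 and 6.07 against 5.34 and 5.06, a difference of -0.72 (SE 0.18). Both knockout arrays were below both wild-type arrays on all 3. SLC3A2, the heavy chain that carries xCT to the membrane, read 10.04 and 10.10 in wild type against 9.84 and 9.63 in knockout, and its difference of -0.34 (SE 0.10) did not pass (limma adjusted p = 0.136).

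Glutathione synthesis genes read lower by less than 2-fold on their brightest probe sets. Glutamate-cysteine ligase, the rate-limiting enzyme, has a catalytic subunit, GCLC, and a modifier subunit, GCLM. GCLC read 9.29 and 9.29 in wild type against 8.71 and 8.64 in knockout on 202923_s_at, a difference of -0.62 (SE 0.09). On 202922_at it read 9.23 and 8.57 against 8.04 and 8.40, a difference of -0.68 with a wider error (SE 0.24). The dimmest GCLC probe set, 1555330_at, read 3.65 and 3.69 against 3.52 and 3.55. That probe set lay below the 25th percentile of both knockout arrays, and its difference of -0.14 (SE 0.15) was not larger than its error.

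GCLM read lower on all 3 probe sets, with uneven replicates on the dimmer ones. The probe set 203925_at read 10.80 and 10.45 in wild type against 9.64 and 9.80 in knockout, a difference of -0.90 (SE 0.14), or 1.87-fold lower. On 234986_at GCLM read 8.79 and 8.15 against 6.90 and 7.94, a difference of -1.05 (SE 0.37). On 236140_at it read 9.85 and 8.38 against 8.08 and 8.74, so the groups overlapped, with a difference of -0.71 (SE 0.48). The SD between replicates reached 1.04 in wild type on the last and 0.73 in knockout on 234986_at.

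GSS, glutathione synthetase, completes the molecule by adding glycine. It read 9.43 and 9.34 in wild type against 9.16 and 9.06 in knockout on 201415_at, a difference of -0.27 (SE 0.10). On 211630_s_at it read 8.87 and 8.88 against 8.69 and 8.59, a difference of -0.23 (SE 0.10). Both probe sets separated the groups by a small distance, and GSS was not called under any of the 13 alternatives tried.

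Of the cytosolic enzymes that break glutathione down, CHAC1 read lower and CHAC2 overlapped between the groups. CHAC1 cleaves glutathione and is known as a stress-induced gene, whereas CHAC2 is a slower enzyme of the same kind. The only CHAC1 probe set, 219270_at, read 9.51 and 9.71 in wild type against 7.59 and 7.29 in knockout, a difference of -2.17 (SE 0.14), or 4.5-fold lower, at rank 22 from the largest fall. CHAC2 read 9.0 and 8.34 in wild type against 8.41 and 8.71 in knockout, with overlapping groups and a difference of -0.10 (SE 0.24, limma adjusted p = 0.896). The CHAC1 and CHAC2 differences were not tested against each other.

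CDO1 read lower by more than any other member on its brightest probe set, but not with the mean of its probe sets. CDO1 encodes cysteine dioxygenase, which oxidises cysteine to cysteine sulfinate. On 204154_at it read 6.84 and 6.69 in wild type against 3.58 and 3.35 in knockout, a difference of -3.30 (SE 0.16), or 9.86-fold lower, at rank 5 from the largest fall. Both knockout values lay below the 25th percentiles of their arrays (3.67 and 3.59), so the size of the difference is uncertain. The second CDO1 probe set, 243706_at, was dim in both groups, with 4.0 and 4.17 against 3.74 and 3.89 and a difference of -0.28 (SE 0.16). With the mean of all probe sets of a gene the CDO1 difference was -1.79, behind CHAC1 at -2.17 and CTH at -2.10.

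CSAD, which decarboxylates cysteine sulfinate on the way to taurine, did not separate the groups. Its probe set 221139_s_at read 6.16 and 5.60 in wild type against 5.61 and 5.70 in knockout, a difference of -0.22 (SE 0.21). On 238764_at CSAD read 5.59 and 5.73 against 5.99 and 5.48, a difference of 0.08 (SE 0.20). The dim 1568620_at read 3.86 and 3.91 against 3.82 and 4.15, a difference of 0.10 (SE 0.18). The groups overlapped on all 3, and no CSAD difference was clearly larger than its error.

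**Figure D2:**
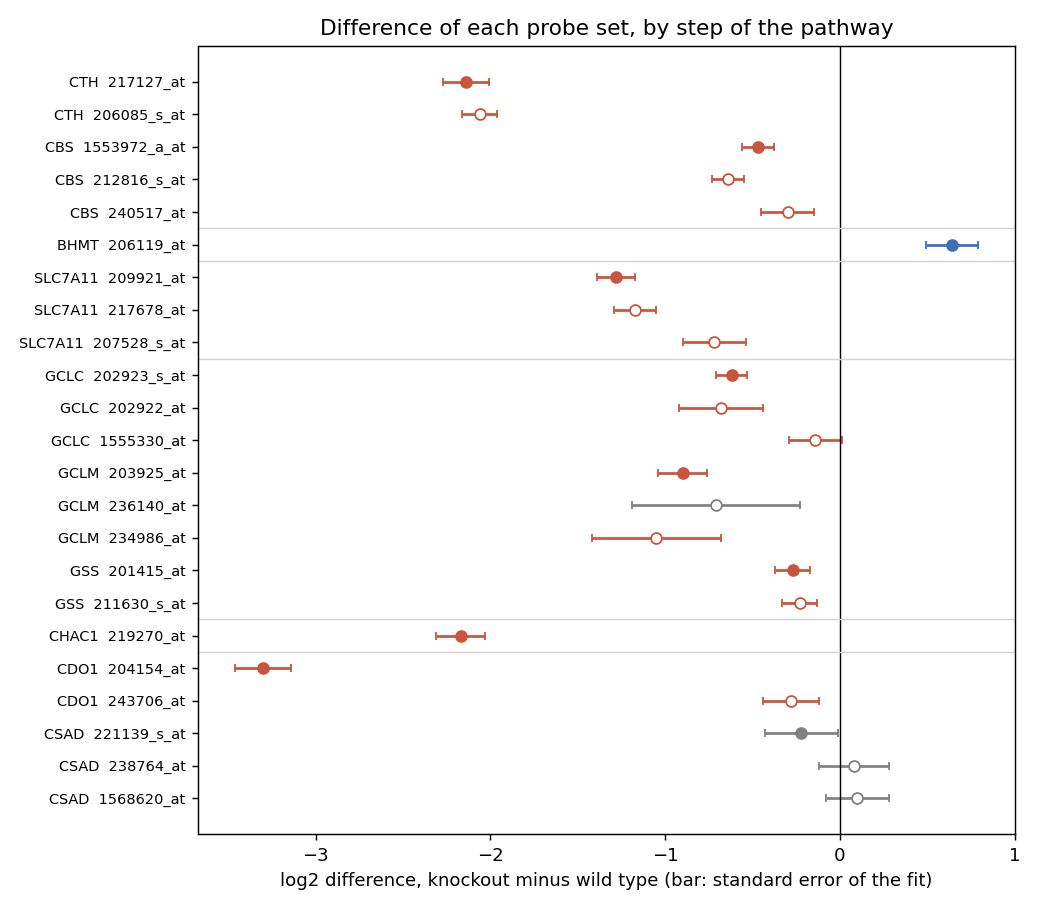
Log2 difference, knockout minus wild type, of each of the 23 probe sets, with bars for the limma SE. Filled points are the brightest probe set of a gene, grey points are those whose groups overlap, and lines part the steps of the pathway. CDO1, CHAC1 and CTH stand farthest to the left at -3.30, -2.17 and -2.14, and BHMT stands to the right at 0.64.

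Of 79 other measured genes of the pathway, 14 fell, 3 rose and 62 did not pass (limma adjusted p over all genes), beside 3.94% and 3.14% of all genes called lower and higher. Their median difference was -0.12. The lists were chosen with earlier results of these data known, so nothing is read from these counts beside those shares. Most listed genes also lay above the median of all genes. Genes at or above it gave 1598 calls when fitted alone, against 1399 over all 19775 genes. The 1598 came from fewer genes, so the share called among brighter genes was larger than the shares given for all genes. With any of the 4 arrays left out limma called 0 lower, where 17 to 25 were lower at an unadjusted p under 0.05. Of the 3 rises, that of SLC1A1 held with either wild-type array gone. With either knockout array gone limma called 0 higher, where 6 had an unadjusted p under 0.05. The other calls in these lists were lost with any array left out. Without the intensity trend in the variance the calls of MAT2A, AHCY, GOT1, SQOR, BAAT, CEBPB and SESN2 ended too. MTRR, MAT2A, AHCY, SLC7A9 and SESN2 were read only by probe sets that may match several transcripts. These genes could therefore not be read without such probe sets.

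Methionine cycle genes fell in 4 of 12 measured, with 0 rising and 8 not passing, and their median was -0.25. Besides BHMT2, MTRR, which reactivates methionine synthase, read 10.47 and 10.49 in wild type against 9.73 and 9.47 in knockout, and fell by 0.88 (SE 0.11, adjusted p = 0.014). MAT2A, which makes S-adenosylmethionine outside adult hepatocytes, read 11.09 and 11.00 against 10.48 and 10.41, and fell by 0.60 (SE 0.08, adjusted p = 0.018). A second MAT2A probe set gave -0.16, and the MAT2A call ended with the mean of both (-0.38). AHCY, which forms homocysteine, read 12.04 and 12.01 against 11.58 and 11.52, and fell by 0.47 (SE 0.08, adjusted p = 0.027). MAT1A, the liver form of the same enzyme as MAT2A, gave -0.27 (SE 0.10) and did not pass (adjusted p = 0.206).

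Among genes of cysteine catabolism, sulfide and taurine, the median was -0.26, and 3 of 11 fell, 1 rose and 7 were not called. TST, thiosulfate sulfurtransferase, read 11.29 and 11.43 in wild type against 10.42 and 10.20 in knockout, and fell by 1.05 (SE 0.11, adjusted p = 0.0081). SQOR, which oxidises hydrogen sulfide in mitochondria, read 8.54 and 8.63 against 7.96 and 7.68, and fell by 0.77 (SE 0.13, adjusted p = 0.028). GOT1, the cytosolic aspartate aminotransferase, fell by 0.50 (SE 0.10, adjusted p = 0.048), a call that also ended with repeated quantile normalization and without probe sets that may match several transcripts. BAAT, which joins taurine or glycine to bile acids, rose by 0.92 (SE 0.17, adjusted p = 0.038), from 5.43 and 5.61 to 6.28 and 6.62. The groups did not overlap in any of these 4, but they were named because they were called, so this adds no support. ADO, a second thiol dioxygenase, read 8.48 and 8.45 against 8.41 and 8.29 and did not pass (-0.11, adjusted p = 0.659). The other ADO probe set gave -0.50, and the mean of both was -0.30.

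None of the 10 measured genes of glutathione breakdown and the gamma-glutamyl cycle was called by limma, and 2 had an unadjusted p under 0.05, 1 in each direction. The list had a median of -0.11. GGCT, which acts on gamma-glutamyl amino acids such as those GGT1 makes, read 12.05 and 11.61 in wild type against 11.54 and 11.87 in knockout (-0.12, SE 0.18). GGT1, which degrades glutathione outside the cell, read 5.08 and 4.92 against 5.08 and 5.05 (0.07, SE 0.15). Both genes had overlapping groups.

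The list of glutathione reduction and use held 17 genes, the thioredoxin genes TXN and TXNRD1 among them. Its median was -0.03, with 1 rise, 1 fall and 15 not passing. GPX8, a peroxidase of the endoplasmic reticulum, read 7.82 and 7.62 in wild type against 8.72 and 8.73 in knockout, and rose by 1.00 (SE 0.11, adjusted p = 0.0098). GLRX2, a mitochondrial glutaredoxin, read 9.38 and 9.05 against 8.08 and 8.28, and fell by 1.03 (SE 0.15, adjusted p = 0.018). GSR, glutathione reductase, gave -0.30 (SE 0.13, adjusted p = 0.275). GPX4, which reduces lipid peroxides, read 12.07 and 11.98 against 12.16 and 12.17 and did not pass (0.14, adjusted p = 0.422).

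Transporters of cystine, cysteine and glutathione had a median of -0.18, with 3 of 11 falling, 1 rising and 7 not passing. SLC1A1, a glutamate transporter that also carries cysteine, read 7.81 and 7.68 in wild type against 9.34 and 9.23 in knockout. It rose by 1.54 (SE 0.11, adjusted p = 0.0029), and its second probe set gave 0.38, with a mean of both of 0.96. SLC7A9 and SLC3A1 form the cystine transporter of kidney and intestine. SLC7A9 fell by 1.09 (SE 0.18, adjusted p = 0.027), from 6.22 and 6.25 to 5.35 and 4.94. SLC3A1, a dim gene named after its values were seen, fell by 1.02 (SE 0.18, adjusted p = 0.035), and another of its probe sets gave 0.01. SLC1A4, a carrier of neutral amino acids, fell by 0.89 (SE 0.13, adjusted p = 0.018), and averaging its 5 probe sets (-0.59) ended the call, as did leaving out probe sets that may match several transcripts.

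Regulators in the ATF4 and NRF2 pathways had a median of -0.09, with 3 of 18 falling and 15 not passing. Limma called 0 higher, and 2 were higher at an unadjusted p under 0.05. ATF4 itself read 12.96 and 12.89 in wild type against 12.77 and 12.79 in knockout, a difference of -0.15 (SE 0.08) that did not pass (adjusted p = 0.384). DDIT3, the stress factor CHOP that ATF4 induces, read 9.44 and 9.41 against 8.77 and 8.63, and fell by 0.72 (SE 0.10, adjusted p = 0.016). SESN2, a stress-induced sestrin, fell by 0.74 (SE 0.13, adjusted p = 0.033) and CEBPB, a partner of ATF4 in binding DNA, by 0.59 (SE 0.08, adjusted p = 0.018). ATF3 gave -0.50 (SE 0.11, adjusted p = 0.053) on a probe set that may match several transcripts, and 0.21 without such probe sets.

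For the NRF2 side, NFE2L2, which encodes NRF2, read 11.35 and 11.10 in wild type against 11.34 and 11.53 in knockout (0.21, SE 0.12, adjusted p = 0.433). KEAP1, its inhibitor, read 9.44 and 9.41 against 9.52 and 9.46 (0.06, SE 0.09, adjusted p = 0.809). Neither passed. ATF4 and NRF2 are also controlled at the protein level, which arrays do not measure.

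**Figure D3:**
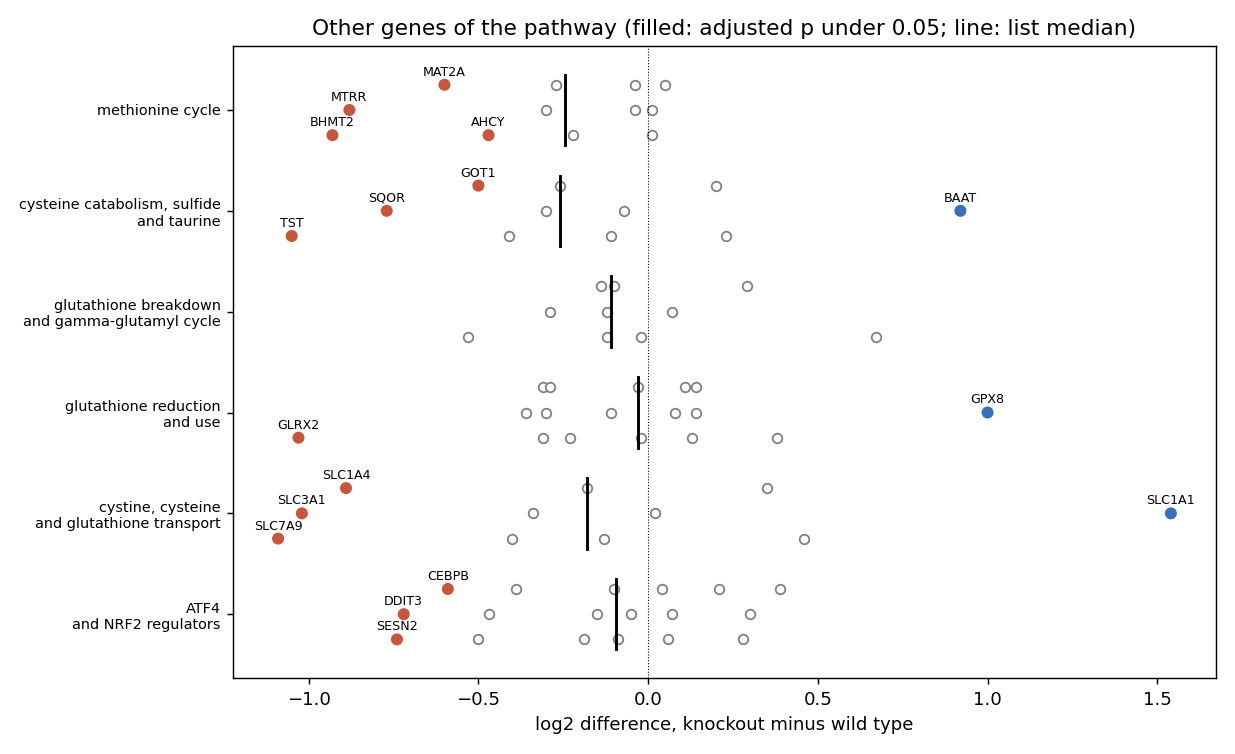
Log2 difference, knockout minus wild type, of the 79 other pathway genes in 6 lists, each gene read by its brightest probe set. Filled and named points have a limma adjusted p under 0.05 over all genes, open points do not, and the vertical line is the list's median. Of the filled points, 14 lie below 0 and 3, BAAT, GPX8 and SLC1A1, above it.

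The neighbours of most members had medians near 0. For each member the 10 nearest genes on either side with a mean at or above the median of all genes were taken in RefSeq order. The neighbours' median was 0.01 for CTH, 0.08 for CHAC1, 0.09 for CDO1, 0.11 for GCLM and 0.03 for GCLC. For CBS it was -0.11, for GSS -0.13 and for CSAD -0.07. Around SLC7A11 18 of 20 neighbours were lower, with a median of -0.37 (-0.42 in knockout 1 and -0.25 in knockout 2). Of those, 5 were called lower and 0 higher, and the part of this stretch in the SLC7A11 difference of -1.28 was not tested. Around BHMT 17 of 20 neighbours, BHMT2 among them, were lower, with a median of -0.29 and 5 called lower, while BHMT itself read higher. Around the other members 0 to 3 neighbours were called lower and 0 to 4 higher. Of all genes, 48% read lower, 3.94% were called lower and 3.14% higher. The neighbours were taken from the brighter genes, which gave 1598 calls when fitted alone, against 1399 over all 19775 genes. Those 1598 came from fewer genes, so a larger share of brighter genes was called.

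KDM6B, the targeted gene, read 8.46 and 8.27 in wild type against 7.95 and 8.14 in knockout on its brightest probe set (-0.32, SE 0.12, limma adjusted p = 0.235). All 5 of its probe sets read lower, but where they lie relative to the edit was not determined, so they do not check the knockout. Across all probe sets the wild-type arrays correlated at 0.992 and the knockout arrays at 0.994. The hepatocyte markers ALB and AFP read between 13.70 and 13.96 in all 4 arrays, and 3 of 8 such markers were called lower (APOB at -0.74, FGB at -0.63 and SERPINA1 at -0.49). Of 18 markers of other cell types, 12 lay at or above the 25th percentile on every array, COL3A1 lay below it on 2, and 5 lay below it on all 4 (PTPRC of leukocytes, CDH5 and KDR of endothelium, LUM of fibroblasts and LRAT of stellate cells). Called lower in knockout were LYZ, 1 of 3 leukocyte markers (-1.58), and PECAM1, 1 of 5 endothelial markers (-0.88), and both calls ended without the intensity trend (adjusted p = 0.092 and 0.071) and with any array left out. The endothelial marker TEK read 4.43 and 4.11 in wild type against 4.93 and 4.88 in knockout, a difference of 0.63 that was not called (adjusted p = 0.103) but had an unadjusted p under 0.05. Read by the brightest probe set, no marker of fibroblasts (5 measured) or stellate cells (5 measured) was called by limma, and 0 had an unadjusted p under 0.05. Their other probe sets varied more, from -0.05 to 1.43 for COL1A1, -0.18 to 0.50 for DCN and -0.62 to 0.32 for RGS5. Summed on the linear scale, the leukocyte markers gave 2496 and 1587 in wild type against 537 and 901 in knockout. The endothelial ones gave 204 and 236 against 168 and 146. Such a sum weighs its brightest marker most, which on all 4 arrays was LYZ for leukocytes and PECAM1 for endothelium. The other leukocyte markers, PTPRC and CD3E, gave differences of 0.08 and 0.03, so the lower leukocyte sum reflects LYZ alone. Beside PECAM1 and TEK, the endothelial markers VWF, CDH5 and KDR gave -0.08, -0.25 and -0.02. The part of other cell types in the differences above was not tested.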

How the data were processed

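HuH7 RNA was labelled from the 3′ end and hybridised to 4 arrays, 2 per genotype. The deposited log2 values were made by the authors with RMA and the affy package, per the submitters' processing notes, in versions not given in the sources used here. Because RMA equalises the distributions of arrays, it would hide a change common to most genes. No detection calls were used, and precision is limited by having 4 arrays. Of 54613 probe sets, 41091 had 1 gene symbol, 1801 several and 11721 none. A gene was read by its brightest probe set.

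Knockout was compared with wild type in limma 3.58.1 (R 4.3.3; lmFit, eBayes with an intensity trend, two-sided, Benjamini-Hochberg over all features, called under 0.05), once over 19775 genes and once over 41091 probe sets. The fit has 2 residual degrees of freedom. An exact permutation test of 2 against 2 arrays cannot go below 0.333, so none was run. The fit was also run on simulated data with independent noise drawn from its own variance model, so that run does not check the model on these arrays. Tables and figures used Python 3.11.15, pandas 2.3.3 and matplotlib 3.10.9.

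The members, lists and motifs were chosen with earlier results of these data known. Named were the members, KDM6B, set partner genes, and up to 3 called genes per list and direction whose brighter group reached the median of all genes (6.19). Of 82 listed genes 79 were measured. Alternatives varied the probe set, prior, scaling, filter, threshold, pairing and arrays.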

Additional observations from a re-analysis of the deposited data

How the results depend on the processing

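With only 2 arrays per group, the counts of calls moved with the fit, while the members' directions did not, apart from CSAD, which turned to 0.06 without wild type 1 and to 0.08 without probe sets that may match several transcripts. Over the alternatives the difference ranged from -2.27 to -2.0 for CTH, -2.32 to -2.02 for CHAC1, -1.38 to -1.06 for SLC7A11, -1.08 to -0.73 for GCLM, -0.68 to -0.48 for GCLC, -0.50 to -0.30 for CBS, -3.41 to -1.79 for CDO1 and 0.51 to 0.76 for BHMT. Without the intensity trend 783 genes, 4 members lower, 8 pathway genes lower and 756 probe sets were called, and the cause was not tested. At an adjusted p under 0.10 the counts were 2236 genes, 1 member higher (BHMT), 5 pathway genes higher and 2958 probe sets. Without probe sets that may match several transcripts, 826 genes, 5 members lower and 6 pathway genes lower were called, with fewer genes tested. With the mean of all probe sets of a gene 5 members were called lower and 1, BHMT, was called higher. Leaving out an array gave 37 to 192 genes, 2 to 3 members lower, 0 pathway genes lower, 0 to 1 higher and 0 to 193 probe sets, with fewer samples and the lone array assumed to vary like the other group. The probe set counts of 0 came without knockout 1 and without knockout 2, where limma gave 4121 and 4280 at an unadjusted p under 0.05. Repeated quantile normalization, median centring and the filter on dim features kept each of these counts within 1.5 times.

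Arrays that share a number deviated in opposite directions (correlation -0.55 across genes, which are not independent), and the numbers were not taken as pairing. The number as a replicate block left 175 genes, 4 members lower, 0 pathway genes lower (18 at an unadjusted p under 0.05 in limma), 1 higher and 103 probe sets. The crossed pairing, chosen after seeing the data, gave 3662 genes, 1 member higher, 27 pathway genes lower, 10 higher and 4589 probe sets. Signs turned for 4 genes that were not called. With an array left out CHAC2 ranged from -0.43 to 0.23, GGCT from -0.35 to 0.10 and GGT1 from -0.01 to 0.14. ATF3 turned to 0.21 without probe sets that may match several transcripts.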
